A study of Mus musculus with 8 samples.

Results

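Progesterone-induced target genes of the uterus were examined in Foxa2-deleted and control mice. The set comprised 8 genes, Lrp2, Il13ra2, Calca, Gata2, Zbtb16, Alox15, Fkbp5 and Tsc22d3. They were chosen by name as targets of the progesterone receptor or of the glucocorticoid-type receptors outside the hedgehog pathway. Earlier results of these data were known at the time, so the choice was not independent of them. Of the 8 genes, 7 were measured by a probe set with a single gene symbol, 1 each, out of 19938 genes tested. Calca, which encodes calcitonin and calcitonin gene-related peptide, was not analysed here, since the array annotation used gave no probe set under its symbol. Whole uteri of 8 female mice were each hybridised to 1 microarray. The 4 controls were Pgr+/+ Foxa2+/+. The 4 Foxa2-deleted animals were PgrCre/+ Foxa2flox/flox, so that the Cre recombinase was made from 1 allele of the progesterone receptor gene Pgr in cells that use this gene, and floxed Foxa2 was recombined there. All 8 females had been mated to vasectomised wild-type males, had no embryos, and were taken on day 3.5 of pseudopregnancy with the day of the plug as day 0.5. The sources used here state no ages or strains. Controls carried no Cre, so that Cre, the Pgr genotype and the Foxa2 deletion cannot be told apart.

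Progesterone acts through a nuclear receptor, PGR, which on binding the hormone leaves a chaperone complex built on HSP90 and occupies hormone response elements in DNA. The glucocorticoid, mineralocorticoid and androgen receptors recognise nearly the same elements, and a group of genes such as Fkbp5, Zbtb16 and Tsc22d3 therefore answers to several of these hormones. In the uterus before implantation progesterone opposes the growth response of the epithelium to estrogen and prepares the stroma for the embryo.

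The start-site windows of 3 genes that were lower in deleted uteri, Lrp2, Il13ra2 and Fkbp5, are shown because they are the regulatory sequence nearest to the genes whose transcripts fell together. A window of Tsc22d3 is added as the only one of 9 windows, over 6 of the 8 genes, that held the receptor motif searched. Each is the RefSeq window on GRCm38.p6 from 250 bases before to 50 after a start, printed 5′ to 3′ on the gene's strand, which is the minus strand in all 4. Capitals mark matches, on either strand, to the steroid receptor motif TGTTCT, its spaced palindrome core ACANNNTGT, the GATA motifs AGATAA and TGATAA, or the FOXA motifs TGTTTAC and TATTTAC.
Lrp2, chr2:69585980-69586279: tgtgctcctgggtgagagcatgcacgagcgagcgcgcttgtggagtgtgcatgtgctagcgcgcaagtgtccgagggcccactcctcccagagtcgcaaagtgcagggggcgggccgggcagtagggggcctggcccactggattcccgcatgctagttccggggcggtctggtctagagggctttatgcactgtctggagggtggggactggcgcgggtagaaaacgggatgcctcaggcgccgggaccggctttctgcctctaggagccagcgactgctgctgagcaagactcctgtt
Il13ra2, chrX:147429143-147429442: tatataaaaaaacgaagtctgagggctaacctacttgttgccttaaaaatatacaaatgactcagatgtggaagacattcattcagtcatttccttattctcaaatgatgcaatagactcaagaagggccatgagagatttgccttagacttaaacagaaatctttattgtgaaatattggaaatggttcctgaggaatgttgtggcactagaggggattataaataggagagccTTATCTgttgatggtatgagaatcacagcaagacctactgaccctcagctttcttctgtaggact
Fkbp5, chr17:28486100-28486399: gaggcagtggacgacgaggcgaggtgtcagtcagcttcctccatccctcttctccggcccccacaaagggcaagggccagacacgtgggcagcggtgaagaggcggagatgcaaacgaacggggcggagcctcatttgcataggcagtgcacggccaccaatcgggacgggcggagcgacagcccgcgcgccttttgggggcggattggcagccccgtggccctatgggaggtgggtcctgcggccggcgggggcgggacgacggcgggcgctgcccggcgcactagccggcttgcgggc
Tsc22d3, chrX:140600473-140600772: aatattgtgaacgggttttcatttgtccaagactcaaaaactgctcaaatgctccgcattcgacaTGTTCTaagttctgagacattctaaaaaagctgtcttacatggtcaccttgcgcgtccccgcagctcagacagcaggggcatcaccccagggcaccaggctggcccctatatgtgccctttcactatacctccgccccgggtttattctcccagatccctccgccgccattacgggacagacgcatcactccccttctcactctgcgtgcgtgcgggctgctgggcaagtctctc
The windows of Lrp2 and Fkbp5 held none of these motifs, and their GC content was 65.0% and 70.7%. Il13ra2 had 1 GATA match, read on the opposite strand, from base -15 to base -10 before the start, in a window of 37.7% GC. Tsc22d3 had 1 match to TGTTCT from base -185 to base -180, in 1 of its 3 windows. Over all 32851 windows of this length, 19.0% held TGTTCT, 6.85% the spaced core, 18.6% a GATA motif and 6.55% a FOXA motif. The only other match among the 9 windows was a GATA motif in that of Calca. A match describes letters in a window and is not a measured binding site, and elements outside these windows were not searched.

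Of the 7 genes measured, 4 passed as lower in deleted uteri, with an adjusted p below 0.05 (limma, adjusted by Benjamini-Hochberg over all 19938 genes), and none was higher, also at an unadjusted p under 0.05. Among all genes, 6.58% were called lower and 4.5% higher, and 6272 of the 19938 had an unadjusted p under 0.05 in either direction. The 4 were the endocytic receptor gene Lrp2, the interleukin 13 decoy receptor gene Il13ra2, the zinc finger gene Zbtb16 and the co-chaperone gene Fkbp5. All 7 had a lower mean in deleted uteri, with a median log2 change of -0.78 against 0.01 over all genes. In 6 of the 7 every deleted array lay below every control, as in 11.6% of all genes. Whole tissue does not separate less RNA per cell from fewer cells of a type.

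The calls needed all 4 controls. With any 1 control left out, 0 of the 7 passed an adjusted p of 0.05 in limma, although 6 still had an unadjusted p under 0.05, while the count over all genes dropped from 2209 to between 556 and 1111. Without Foxa2-deleted replicate 1, 2, 3 or 4 the number of target genes called was 2, 6, 2 and 3, while 1069, 2947, 1868 and 3059 genes were called over all genes (5.36%, 14.8%, 9.37% and 15.3%). All 7 kept a lower mean in each of these fits.

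**Figure D1:**
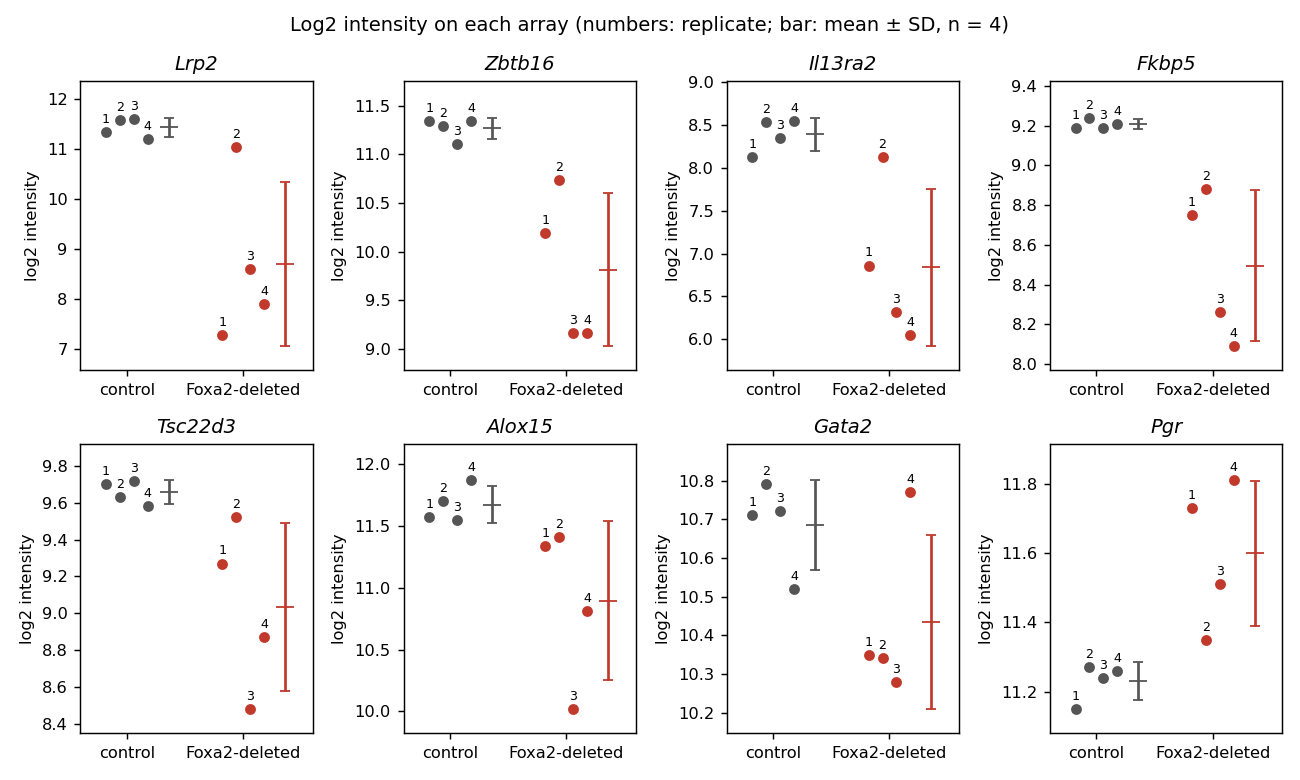
Log2 intensity (vertical axis, a separate range in each panel) of the 7 target genes and of Pgr on the 4 control and 4 Foxa2-deleted arrays, numbered by replicate, with the mean ± SD at the right of each group. Foxa2-deleted replicate 2 is the deleted array nearest the control mean in every target gene but Gata2.

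Lrp2 encodes megalin, a large endocytic receptor of absorptive epithelia that takes up vitamins and hormones bound to carrier proteins. Its log2 intensity was 11.34, 11.58, 11.60 and 11.20 on control replicates 1 to 4 and 7.28, 11.03, 8.60 and 7.91 on Foxa2-deleted replicates 1 to 4. The groups did not overlap, but replicate 2 lay just under the lowest control while the others were far below. Relative to the control mean the intensity was 17.8-fold lower on replicate 1, 7.11-fold on replicate 3, 11.5-fold on replicate 4 and 1.32-fold on replicate 2. The group means were 11.43 ± 0.19 and 8.71 ± 1.64 (SD, n = 4 each), a log2 change of -2.73 with an SE of 0.68 and an adjusted p of 0.038 in limma, and 5 of the 19938 genes had a larger fall. Leaving out any single array but Foxa2-deleted replicate 2 ended the call, at an adjusted p no higher than 0.103, and without replicate 2 the log2 change was -3.50 (adjusted p = 2.9e-04).

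Il13ra2 encodes a receptor chain that binds interleukin 13 with high affinity and acts largely as a decoy. Control arrays read 8.13, 8.53, 8.35 and 8.55, and deleted arrays 6.86, 8.12, 6.32 and 6.05, in order of replicate. Replicate 2 was 0.01 below control replicate 1, so the groups were separated by the last decimal of the deposited values. The other 3 deleted arrays were 2.89-fold, 4.20-fold and 5.06-fold below the control mean. On average the log2 change was -1.55 (SE 0.39, adjusted p = 0.038, limma), with means of 8.39 ± 0.20 and 6.84 ± 0.92 (SD, n = 4 each). This gene too lost its call with any single array left out except Foxa2-deleted replicate 2, the adjusted p reaching 0.105. Without that array the change was -1.98 (adjusted p = 7.4e-04).

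Zbtb16 encodes PLZF, a zinc finger transcription factor of the BTB family and a target of both progesterone and glucocorticoid receptors. On controls it read 11.34, 11.29, 11.11 and 11.34, and on deleted arrays 10.19, 10.74, 9.16 and 9.16. Replicates 3 and 4 shared the lowest value, 4.32-fold below the control mean, and replicate 2 was the highest of the deleted arrays at 1.44-fold below. Means of 11.27 ± 0.11 and 9.81 ± 0.79 (SD, n = 4 each) gave a log2 change of -1.46 (SE 0.33, adjusted p = 0.028, limma). It no longer passed without any 1 control, with adjusted p from 0.067 to 0.083, and held without any 1 deleted array.

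Fkbp5 encodes the co-chaperone FKBP51, which sits on HSP90 in steroid receptor complexes, lowers the receptors' affinity for hormone, and is itself induced by them. Control values were 9.19, 9.24, 9.19 and 9.21, a range of 0.05, and deleted values 8.75, 8.88, 8.26 and 8.09. All deleted arrays were clear of the controls, at 1.37-fold, 1.25-fold, 1.93-fold and 2.17-fold below their mean. The log2 change was smaller than in the 3 genes above, at -0.71 (SE 0.16, adjusted p = 0.028, limma), with means of 9.21 ± 0.02 and 8.50 ± 0.38 (SD, n = 4 each). The SD among deleted arrays was 16.1 times that among controls. Like Zbtb16, Fkbp5 lost its call without any 1 control, with adjusted p from 0.064 to 0.082, and kept it without any 1 deleted array.

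Tsc22d3, Alox15 and Gata2 did not pass the threshold. Tsc22d3 encodes GILZ, a leucine zipper protein induced by glucocorticoids. It read 9.70, 9.63, 9.72 and 9.58 on controls and 9.27, 9.52, 8.48 and 8.87 on deleted arrays, with no overlap. Replicate 2 was 0.06 below the lowest control, and replicate 3 was the lowest at 2.26-fold below the control mean. The log2 difference was -0.62 (SE 0.19, 95% interval from -1.06 to -0.18, adjusted p = 0.070, limma). It passed without Foxa2-deleted replicate 2 (log2 change -0.78, adjusted p = 0.016).

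Alox15 encodes a lipoxygenase that oxygenates polyunsaturated fatty acids such as arachidonic acid. Control arrays were at 11.57, 11.70, 11.55 and 11.87, and deleted arrays at 11.34, 11.41, 10.02 and 10.81. The groups did not overlap, and replicates 1 and 2 lay close under the controls, whereas replicate 3 was 3.14-fold below the control mean. The log2 difference was -0.78 (SE 0.27, 95% interval from -1.40 to -0.16, adjusted p = 0.094, limma). Without Foxa2-deleted replicate 2 it was -0.95, just past the threshold (adjusted p = 0.0495).

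Gata2 encodes a zinc finger transcription factor known in the mouse uterus to act with the progesterone receptor. Its values were 10.71, 10.79, 10.72 and 10.52 on controls and 10.35, 10.34, 10.28 and 10.77 on deleted arrays. Replicates 1, 2 and 3 were within 0.07 of each other and below all controls, and replicate 4 lay among the controls. The log2 difference of -0.25 (SE 0.11, 95% interval from -0.50 to 0.00053) had an adjusted p of 0.160 in limma. Without replicate 4 the change was -0.36 and passed (adjusted p = 0.020).

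By a two-sided exact permutation test of each gene over the 70 arrangements of 4 and 4 arrays, the 6 genes with no overlap had p = 0.029, the smallest the design allows, and Gata2 had p = 0.114. These 7 p-values are unadjusted, and 21.1% of all genes had groups that did not overlap in either direction.

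**Figure D2:**
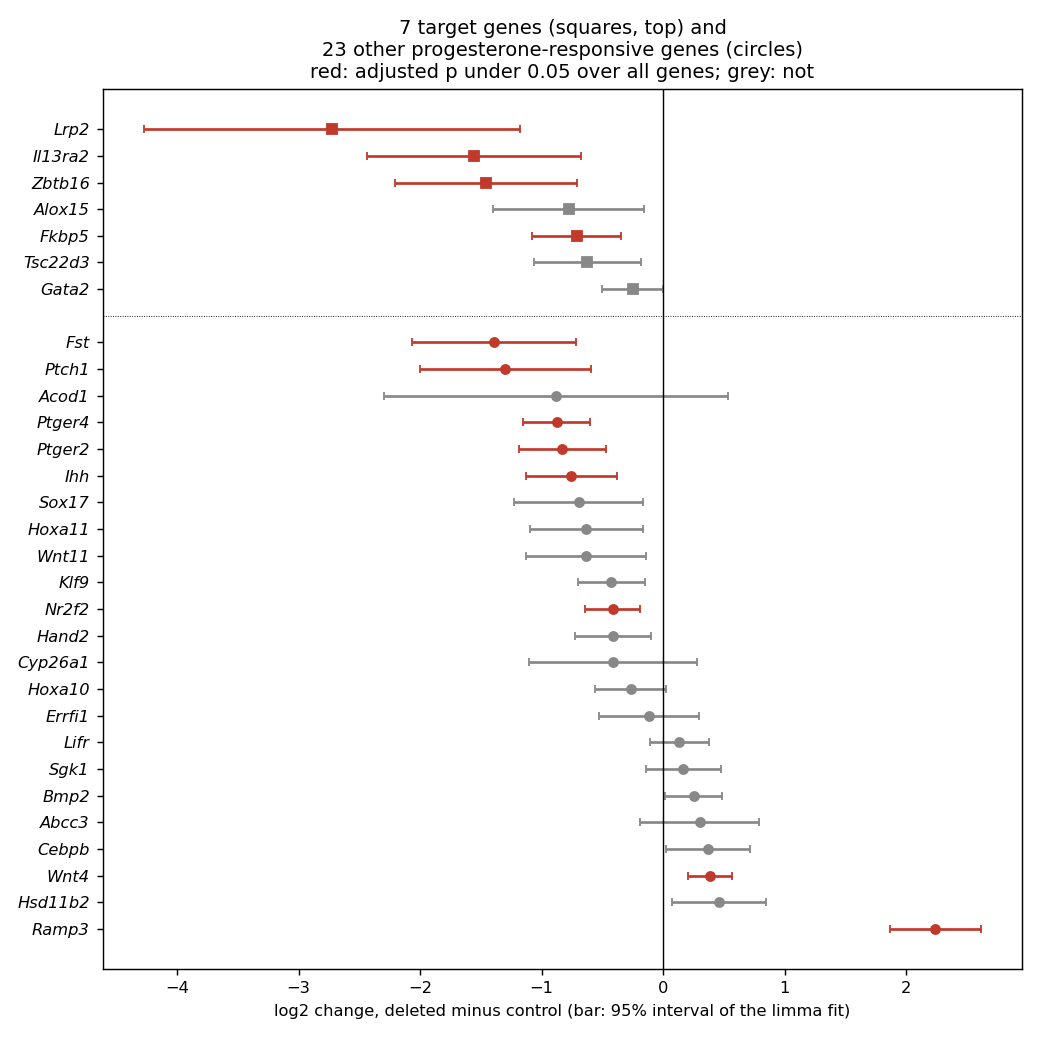
Log2 change, deleted minus control, with its 95% interval from the limma fit, for the 7 target genes (squares) and 23 other progesterone-responsive genes (circles). Red marks an adjusted p under 0.05 over all genes, and the target genes run from -2.73 in Lrp2 to -0.25 in Gata2.

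The deleted uteri differed among themselves more than the controls did in every one of the 7 genes, as in 70.3% of all genes. The SD ranged from 0.02 to 0.20 among controls and from 0.23 to 1.64 among deleted arrays, and was at least 3 times larger in deleted arrays in 6 of the 7, as in 21.3% of all genes. Replicate 2 was the deleted array nearest the control mean in 6 of the 7. The same was true of 29% of all genes, 49.9% of the genes called lower and 62.8% of the 309 genes with an absolute log2 change of at least 1, so the position of this array was shared by many changed genes. The mean of the 7 genes lay 1.18, 0.32, 1.60 and 1.52 log2 units under the control mean on Foxa2-deleted replicates 1 to 4.

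Which array was lowest depended on the gene. Lrp2 was lowest on replicate 1, Il13ra2 and Fkbp5 on replicate 4, Zbtb16 on replicates 3 and 4 alike, and Alox15, Tsc22d3 and Gata2 on replicate 3. Taking each gene's values relative to its control mean, Fkbp5 and Tsc22d3 were the closest pair, with a mean absolute difference of 0.14 over the 8 arrays. Alox15 was 0.17 from Tsc22d3 and 0.19 from Fkbp5, and Il13ra2 was 0.21 from Zbtb16. Lrp2 stood apart from the rest, at 0.68 from Il13ra2 and more from the others. The measure is not scaled to the size of each gene's change, so it reflects that size as well as the order of the arrays. On replicate 1 Lrp2 kept 5.63% of the mean control intensity, Il13ra2 34.6% and Zbtb16 47.3%, while Fkbp5, Tsc22d3, Alox15 and Gata2 kept 72.8% to 79.4%. On replicate 4 the same 3 genes kept 8.72%, 19.8% and 23.2%, and the other 4 between 46.1% in Fkbp5 and 106% in Gata2. On replicate 3 the range over the 7 genes was 14.1% to 75.5%.

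The same measure was used to find the genes outside the set whose values most resembled the 3 with a log2 change of -1 or lower, among 306 candidates that themselves changed by at least 1. For Lrp2 they were the glucose transporter gene Slc2a3 (mean absolute difference 0.46) and Sbspon (0.48), for Il13ra2 Ppfia2 (0.18) and the thrombin receptor gene F2r (0.21), and for Zbtb16 the enkephalin precursor gene Penk (0.14) and the NK cell receptor gene Ncr1 (0.20). Penk read 11.09, 11.85, 9.82 and 10.22 on deleted arrays against 11.99 to 12.19 on controls, with a log2 difference of -1.32 that did not pass (SE 0.38, adjusted p = 0.057, limma). Its order of deleted arrays differed from that of Zbtb16 only in that replicates 3 and 4 were not equal.

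Foxa2 read 8.61 to 8.82 on controls and 8.20 to 8.22 on deleted arrays, so the 4 deleted arrays were alike at this probe set. The sources used here do not say whether this probe set falls within the floxed stretch, and its level is therefore no measure of how complete the deletion was in each uterus. Only the deleted animals carried Cre in an allele of Pgr, the receptor gene. The sources used here do not say whether the Pgr probe set also reads transcript of that allele. Its level is therefore no sure measure of intact receptor RNA. Pgr read 11.15, 11.27, 11.24 and 11.26 on controls and 11.73, 11.35, 11.51 and 11.81 on deleted arrays. It was higher on every deleted array than on any control, with a log2 change of 0.37 (SE 0.10, adjusted p = 0.043, limma), and replicate 2 was again the nearest to the controls. Its adjusted p rose above 0.05, to at most 0.105, when any single control or Foxa2-deleted replicate 1 or 4 was omitted. The call was also lost with quantile normalisation applied again (adjusted p = 0.051), with all probe sets tested (0.058) and with the replicate number as a block (0.078), at log2 changes of 0.36 to 0.37. Of 18 genes of the receptor complexes and of local corticosteroid metabolism, 2 rose, Pgr and the estrogen receptor gene Esr2 (log2 change 0.21, adjusted p = 0.039, limma), and 0 fell, with 5 at an unadjusted p under 0.05. The glucocorticoid receptor gene Nr3c1 had a log2 difference of -0.09 (95% interval from -0.22 to 0.05), and Fkbp4, the co-chaperone that favours receptor activity, one of -0.06 (95% interval from -0.26 to 0.14).

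Of 23 other progesterone-responsive genes, 6 fell, 2 rose and 15 did not pass, with a median log2 change of -0.41. Among all genes 6.58% were called lower and 4.5% higher. Those that fell were the prostaglandin E receptor genes Ptger4 and Ptger2, the activin antagonist gene Fst, the nuclear receptor gene Nr2f2, and Ihh and Ptch1 of the hedgehog pathway. Ptger4 fell by 0.88 (SE 0.12, adjusted p = 0.0060) and Ptger2 by 0.83 (SE 0.16, adjusted p = 0.017). The 2 that rose were Ramp3 and Wnt4. Ramp3, which encodes a subunit of an adrenomedullin receptor, rose by 2.24 (SE 0.16, adjusted p = 3.6e-04). Wnt4, a stromal signal of decidualization, rose by 0.39 (SE 0.08, adjusted p = 0.023). On Foxa2-deleted replicate 2 the mean of the 23 genes was 0.07 above the control mean, against 0.44, 0.34 and 0.29 below it on replicates 1, 3 and 4. The number that fell was between 1 and 2 without any 1 control or Foxa2-deleted replicate 1, and 12 without Foxa2-deleted replicate 2. The share of all genes called lower moved in the same direction. It was 1.75% to 3.25% without any 1 control, 3.07% without Foxa2-deleted replicate 1 and 8.91% without Foxa2-deleted replicate 2.

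Fkbp5, Zbtb16 and Tsc22d3 also answer to glucocorticoids, and 24 genes known as glucocorticoid receptor targets were set beside them. Of these 3 fell, 2 rose and 19 did not pass, with a median of -0.12, where 6.58% of all genes were called lower and 4.5% higher. The glutamine synthetase gene Glul fell by 0.63 (SE 0.10, adjusted p = 0.010), the metallothionein gene Mt1 by 0.80 (SE 0.19, adjusted p = 0.031) and the sulfotransferase gene Sult1a1 by 0.81 (SE 0.20, adjusted p = 0.040). Angptl4 rose by 0.62 (SE 0.13, adjusted p = 0.020), and so did Lcn2, which is also estrogen-responsive, by 4.25 (SE 0.12, adjusted p = 4.5e-07). The 2 lists share Sgk1, Klf9 and Errfi1, none of which passed.

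**Figure D3:**
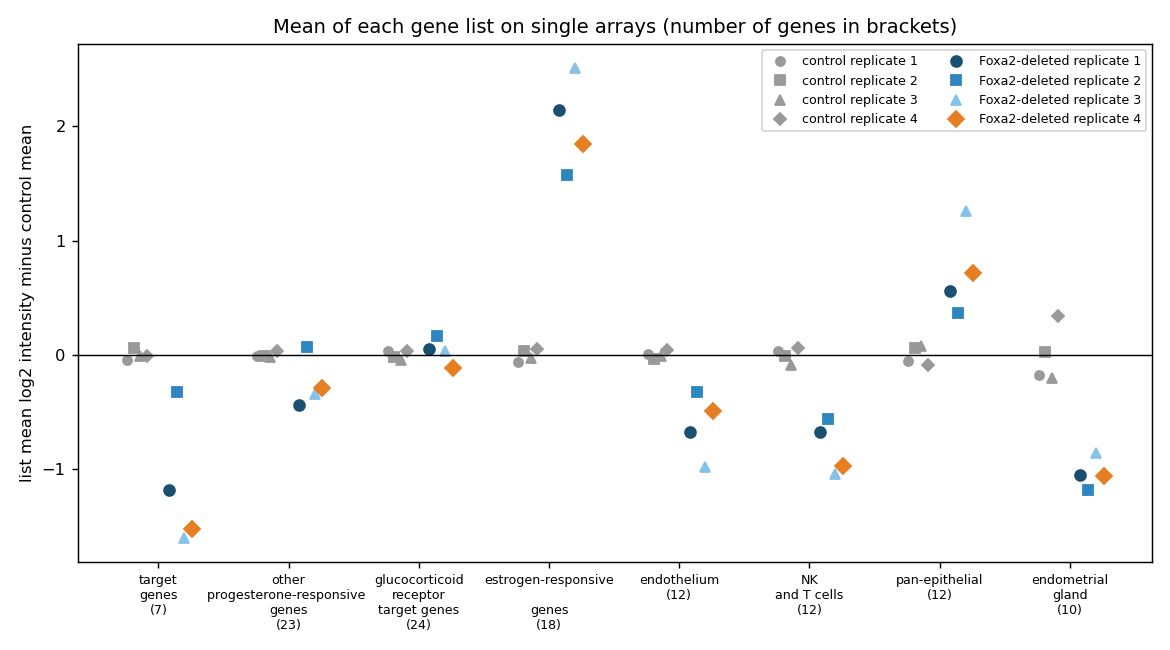
Mean log2 intensity of each gene list on every array minus its mean over the controls (vertical axis), for control arrays (grey) and Foxa2-deleted arrays (coloured), with the number of genes in brackets. The 7 target genes lie 0.32 below the control mean on Foxa2-deleted replicate 2 and 1.18 to 1.60 below on the others.

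Of 82 genes for partners and relatives of the target genes' products 11 passed, or 13.4%, against 11.1% of all genes. Around Il13ra2, of 8 genes of interleukin 4 and 13 signalling the shared receptor chain gene Il4ra rose by 0.54 (SE 0.14, adjusted p = 0.046) and the kinase gene Jak1 fell by 0.33 (SE 0.08, adjusted p = 0.041). Il13ra1, the signalling receptor chain for interleukin 13, had a difference of 0.25 (95% interval from -0.19 to 0.68). Around Calca, of 10 genes of calcitonin-family peptides and receptors Ramp3 rose, as given above, and the adrenomedullin gene Adm rose by 0.51 (SE 0.13, adjusted p = 0.041). Calcb, the neighbouring gene for a second calcitonin gene-related peptide, had a difference of 0.11 (95% interval from -0.0027 to 0.22). Around Lrp2, of 13 partners and ligands the secreted chaperone gene Clu and the receptor gene Lrp8 rose by 0.73 (SE 0.18) and 0.59 (SE 0.15), and Cubn, which encodes the co-receptor cubilin, and Lrp4 fell by 0.30 (SE 0.07) and 0.28 (SE 0.07). Cubn read 7.20 to 7.25 on controls and 6.87, 7.15, 6.87 and 6.81 on deleted arrays. Replicate 2 was nearest the controls, as in Lrp2 and in 49.9% of all genes called lower. Around Alox15, of 11 genes of lipoxygenase pathways Alox8 rose by 0.30 (SE 0.07) and Lta4h, an enzyme of leukotriene synthesis, fell by 0.29 (SE 0.07). Around Gata2, of 10 GATA factors and partners 1 fell, Lmo2, by 0.38 (SE 0.06, adjusted p = 0.012). None of the 12 FKBP, 3 TSC22 and 15 ZBTB relatives of Fkbp5, Tsc22d3 and Zbtb16 passed in limma, with 0, 1 and 5 at an unadjusted p under 0.05. That unadjusted limit was met by 6272 of all 19938 genes. Of the 20 called genes that the naming rule took from the lists around the target genes, 5, namely Ramp3, Ptger4, Lcn2, Glul and Lmo2, kept their call with each array left out in turn. Each of the other 15 lost it without at least 1 control, with adjusted p up to 0.124.

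Lists of cell markers also differed between the groups, some lower and some higher in deleted uteri. Of 12 endothelial markers 8 fell and none rose, and their mean ran from 10.54 to 10.62 on controls and from 9.60 to 10.26 on deleted arrays. Of 12 NK and T cell markers 9 fell and none rose, with means of 8.98 to 9.13 and 8.03 to 8.51. The 9 that fell are genes of NK and cytotoxic cells, such as Ncr1, whereas the T cell receptor complex genes Cd3e and Cd3g and the T cell surface gene Thy1 did not pass, at log2 differences of 0.17, -0.08 and -0.34. Of 12 pan-epithelial markers 5 rose and none fell, with means of 9.97 to 10.14 and 10.42 to 11.31. Of 10 gland markers 5 fell and 1 rose (8.51 to 9.05 and 7.53 to 7.86), and of 9 luminal markers 5 rose and 1 fell (8.55 to 8.77 and 9.20 to 9.56). The luminal list was mixed. Its 3 genes that did not pass had lower means in deleted uteri, and 8 of the 9 had an unadjusted p under 0.05. The gland list holds Foxa2 itself, which is 1 of its 5 falls. Without Foxa2, an alternative chosen after the data were seen, 4 of 9 fell, with means of 8.49 to 9.09 and 7.46 to 7.82. Of 18 estrogen-responsive genes 13 rose and none fell (8.67 to 8.78 and 10.31 to 11.25). Of 12 stromal markers 0 passed in limma, with 4 at an unadjusted p under 0.05 (11.57 to 11.64 and 11.26 to 11.64). For comparison, 6.58% of all 19938 genes were called lower and 4.5% higher, and 6272 had an unadjusted p under 0.05. Smooth muscle markers, with 1 of 10 higher, had means of 11.54 to 11.70 and 11.56 to 12.09, and markers of oviduct and ovary, with 1 of 7 lower, of 7.54 to 7.65 and 7.52 to 7.69. With no detection call, no marker can be called absent. The gland mean on Foxa2-deleted replicate 2 was 1.18 below the control mean, the lowest of the 4, whereas the target genes on that array were the nearest to the controls. The part of any of these cell types in the target genes' values was not tested.

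**Figure D4:**
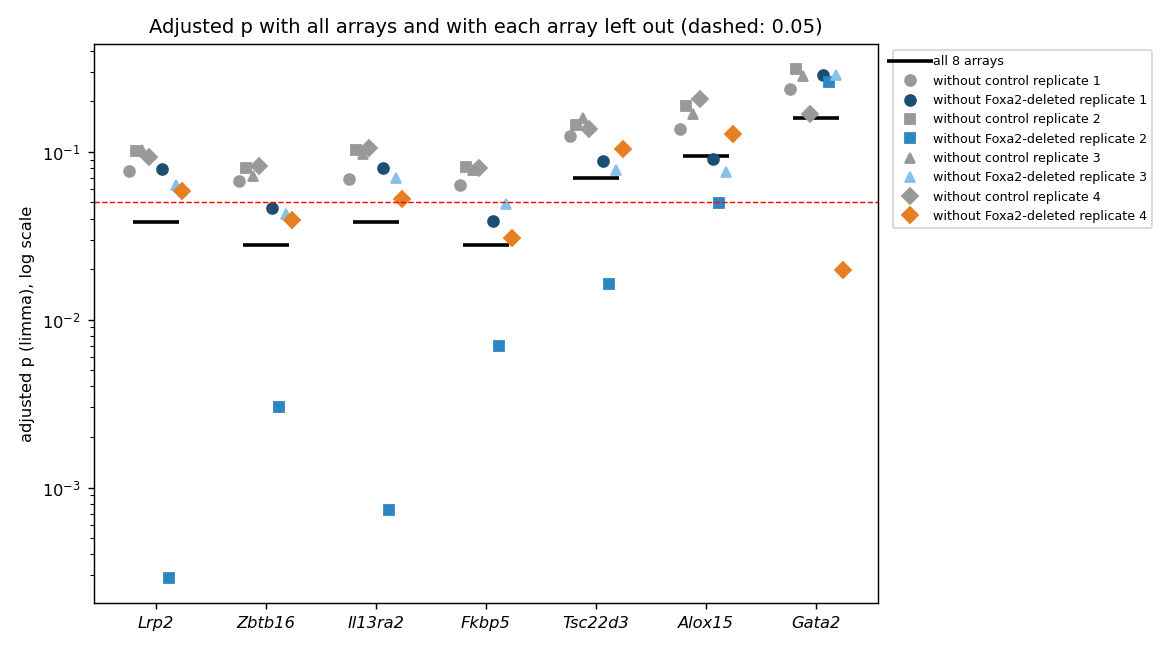
Adjusted p of each target gene (vertical axis, log scale) from the limma fit over all genes with all 8 arrays (black bar) and with each array left out in turn, and the threshold of 0.05 (dashed). Every point without a control (grey) lies above the threshold, and without Foxa2-deleted replicate 2 (blue square) 6 of the 7 genes lie below it.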

How the data were processed

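Each array has 1 log2 intensity per probe set, deposited by the authors after RMA (background correction, normalisation across arrays and probe summary), per the submitters' processing notes, which also name limma. For versions, build and probe annotation nothing is stated in the sources used here. RNA (150 ng per uterus, 1 array each, not pooled) was amplified and biotin-labelled, per the labels' protocols. The labels call the replicates biological, so p-values measure the spread between animals. Array medians were 8.25 to 8.32. No detection call comes with the values, RMA compresses changes of dim genes, and precision is limited by how few arrays there are.

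Of 35556 probe sets 21789 had 1 gene symbol in GEO's platform annotation, 1621 several and 12146 none, and only the first were used. The highest-mean probe set stood for each gene. Genotypes were compared by lmFit and eBayes in limma 3.58.1 (R 4.3.3), with Benjamini-Hochberg adjustment over 19938 genes and a threshold of 0.05. The steps were tested on simulated data.

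The target genes, and the lists, were chosen with earlier results of these data known. Named are the target genes, Foxa2, Pgr, for each list the called genes of lowest adjusted p, at most 4 (with none called, the 2 of lowest p), and the 2 genes most like each target gene that changed by at least 1. Fst, Nr2f2, Ihh, Ptch1, Sult1a1, Sgk1, Klf9, Errfi1, Nr3c1, Fkbp4, Il13ra1, Calcb, Acod1, Cd3e, Cd3g and Thy1 were named outside this rule, after their values were seen. Alternatives covered 3 scalings, 2 filters on dim genes, the choice of probe sets, the variance model, array weights, a replicate block and leaving out each array. Promoter windows are RefSeq's on GRCm38.p6.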

Additional observations from a re-analysis of the deposited data

Results flagged for a closer look

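Of 176 groups of 4 arrays, over 88 genes, 9 had a highest or lowest value set apart from the other 3 by more than Dixon's 95% limit, and chance gives about 1 in 20. Among the target genes 1 of 14 groups was so marked: Gata2 on Foxa2-deleted replicate 4, at 10.77 against 10.28 to 10.35 on the other deleted arrays. F2r, the gene resembling Il13ra2, was marked on Foxa2-deleted replicate 2 at 10.82, against 9.40 to 9.60 on the others. On Foxa2-deleted replicate 3, Lrp8 was marked at 9.36 and the gland chemokine gene Cxcl15 at 6.25. The controls marked were replicate 3 for Ptger2, at 8.37, and replicate 4 for Ramp3 at 9.07, the small proline-rich gene Sprr2f at 7.55, Hoxa11 at 10.66 and Dnah5 at 7.62.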

How the results depend on the processing

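Under 3 other scalings 4 of the 7 target genes were again called lower, and over all genes the split between 898 higher and 1311 lower became 1082 and 982 with arrays centred on their medians. With each array left out in turn, the genes called ranged from 556 to 3059 over all genes, from 0 to 6 among the target genes called lower and from 1 to 12 among the other progesterone-responsive genes called lower. No target gene was called higher and none changed direction under any alternative run. With all 35556 probe sets tested, 2 target genes were called lower, Fkbp5 and Zbtb16, while 7.20% of probe sets were called and 4.65% called lower. With array weights 10 other progesterone-responsive genes were called lower, and Tsc22d3 passed (adjusted p = 0.049). That fit called 15.7% of all genes and 8.93% lower, against 11.1% and 6.58% without weights. With the lower 50% of genes left out Il13ra2 was not tested. Same-numbered arrays did not deviate together (correlations across genes from -0.05 to 0.06, against -0.14 to 0.12 for differently numbered arrays). The labels name no pairing, and correlations over all genes cannot exclude one. With the replicate number as a block, 1062 genes were called over all genes and 2 target genes, Fkbp5 and Zbtb16, were called lower. Of the genes named besides the target genes, 4 reversed, none of them called: with single arrays left out the log2 difference ranged from -0.0225 to 0.19 in the eosinophil marker Il5ra, from -0.11 to 0.0042 in Fkbp4, from -0.33 to 0.0825 in Cd3g and from -0.23 to 0.085 in Errfi1. The cause of these shifts was not tested.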

Other observations

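Acod1, which encodes the itaconate-making enzyme of the uterine epithelium known to answer to progesterone, had the widest interval of the 23 other progesterone-responsive genes. It was chosen after its values were seen. It read 10.30, 10.87, 10.91 and 10.44 on controls and 7.85, 11.16, 10.65 and 9.33 on Foxa2-deleted replicates 1 to 4, so replicate 2 lay above all controls and replicate 3 among them. The log2 difference was -0.88 (SE 0.62, 95% interval from -2.30 to 0.53, adjusted p = 0.355, limma). Replicate 1 was the lowest of its deleted arrays, as in Lrp2.

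Among cells not described above, of 10 neutrophil markers 2 rose, the chemokine receptor gene Cxcr2 by 2.33 and Ly6g by 1.21, and their mean was 1.33 above the control mean on Foxa2-deleted replicate 3 against 0.47 to 0.54 on the others. Of 8 mast cell markers Kit fell, by 0.96, and of 10 macrophage markers Cd163 rose, by 0.25. Of 10 smooth muscle markers Actg2 rose, by 0.51 (adjusted p = 0.045, limma), and of 7 markers of oviduct and ovary Dnah5 fell, by 0.48. Of these 6 genes Dnah5 kept its call with each array left out, and the other 5 lost theirs without at least 1 control, with adjusted p up to 0.132. None of 6 eosinophil markers and 8 markers of mesothelium and fat passed in limma. An unadjusted p under 0.05 was seen in 0 and 2 of them, against 6272 of all 19938 genes.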
